A study of Mus musculus with 100 samples.

Results

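The data described here are the expression levels of 10 genes of the T cell receptor and its co-receptors in mouse knee joints, *Cd3d*, *Cd3e*, *Cd3g*, *Cd247*, *Cd4*, *Cd8a*, *Lck*, *Zap70*, *Jak3* and *Il7r*. They were chosen by name, and all 10 of the 10 names sought were among the 17310 genes of the count table. Knees of MRL/MpJ, C57BL/6 and STR/ort mice, aged 10 weeks at 0-day or at injury, were profiled by RNA sequencing in 100 libraries, which fall into 21 groups of 4 or 5. At 0-day the mice had no injury, while mice of the 3 later groups, named 1-day, 1-week and 2-weeks, had had the right knee injured by tibial compression, which ruptures the anterior cruciate ligament, and the left knee served as uninjured contralateral joint. STR/ort mice develop osteoarthritis spontaneously, MRL/MpJ mice are known for enhanced healing and C57BL/6 is the common reference strain. Each library holds a whole joint with traces of soft tissue, so that bone, marrow, cartilage and muscle were measured together. In such bulk samples fewer T cells and less RNA per T cell cannot be told apart.

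The T cell receptor is a pair of variable chains that bind a peptide on an MHC molecule and cannot signal on their own. They are held at the membrane by the CD3 subunits delta, epsilon and gamma, encoded by *Cd3d*, *Cd3e* and *Cd3g*, and by the zeta chain, encoded by *Cd247*. The co-receptors CD4 and CD8 bind the MHC molecule and bring the kinase Lck to the complex, Lck phosphorylates the CD3 and zeta tails, and the kinase Zap70 docks there. *Il7r* encodes the interleukin-7 receptor alpha chain, which signals through the shared gamma chain and the kinase Jak3 and is needed for the survival of T cells and the growth of B cell precursors in marrow. Among the 10 genes *Cd4*, *Jak3* and *Il7r* are also known from other cells, *Cd4* from macrophages and dendritic cells, *Jak3* from many marrow cells and *Il7r* from B cell precursors.

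*Cd3d*, *Cd3e* and *Cd3g* lie side by side on chromosome 9 (GRCm38.p6, the assembly also named mm10). *Cd3g* spans chr9:44969572-44980431 on the minus strand, *Cd3d* chr9:44981769-44987052 on the plus strand and *Cd3e* chr9:44998735-45009663 on the minus strand. *Cd3d* and *Cd3g* point away from each other, with starts 1338 bases apart. *Cd247* lies on chromosome 1. The bases just before the starts of the 3 clustered genes are printed here because these neighbours differed between strains in unlike ways. They come from the RefSeq promoter table of GRCm38.p6, which is the genome of the C57BL/6J strain, and 9 of the 10 genes are in that table. Sequences of MRL/MpJ and STR/ort were not used here. The letters run from 5′ to 3′ on each gene's own strand and end at the base before its start. Capitals mark a match to GGAAGT, letters bound by ETS factors, or to its reverse complement ACTTCC.
Cd3d, chr9:44981536-44981768, plus strand: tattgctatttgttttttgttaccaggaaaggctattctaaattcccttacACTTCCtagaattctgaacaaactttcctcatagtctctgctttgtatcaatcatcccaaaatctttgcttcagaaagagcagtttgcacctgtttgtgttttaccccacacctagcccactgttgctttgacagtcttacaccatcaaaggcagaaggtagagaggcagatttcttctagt
Cd3g, chr9:44980432-44980681, minus strand: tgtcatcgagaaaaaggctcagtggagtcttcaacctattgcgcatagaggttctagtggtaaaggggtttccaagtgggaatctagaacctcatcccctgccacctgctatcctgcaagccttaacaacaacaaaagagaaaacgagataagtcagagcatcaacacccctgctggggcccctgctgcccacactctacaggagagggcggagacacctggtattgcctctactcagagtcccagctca
Cd3e, chr9:45009664-45009861, minus strand: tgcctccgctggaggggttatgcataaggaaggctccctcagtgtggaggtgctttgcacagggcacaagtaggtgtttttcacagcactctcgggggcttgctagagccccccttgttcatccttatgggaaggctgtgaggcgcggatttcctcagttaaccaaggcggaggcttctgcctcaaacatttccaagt
The *Cd3d* stretch of 233 bases held 1 match to GGAAGT, on the opposite strand, and the stretches of *Cd3g* and *Cd3e* held 0. Of 32851 promoters cut to the same 233 bases, 17.9% hold this motif on either strand. The letters TGTGGT of RUNX factors and the TATA box TATAAA, searched on both strands, were in 0 of the 3 stretches, against 14.0% and 12.4% of all promoters over 250 bases. GC content was 39.5% for *Cd3d*, 51.6% for *Cd3g* and 55.1% for *Cd3e*. These matches describe letters and were not tested as binding sites.

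Total counts per library ranged from 6182016 to 20986027. Levels are given as CPM, the counts of a gene relative to the library total, scaled with TMM factors, and fold changes on the log2 scale with their standard error. Genes were tested with the quasi-likelihood test of edgeR, with Benjamini-Hochberg adjustment over all 17310 genes, and a call required both an adjusted p under 0.05 and a change of more than 1.5 times. Several of the 10 genes had few reads. In the lowest library of each gene there was 1 count for *Cd3e*, *Cd3g* and *Zap70*, 5 for *Cd247* and *Cd3d* and 6 for *Cd8a*. *Jak3*, *Il7r* and *Cd4* had at least 92, 70 and 67. Changes of the low genes are therefore imprecise. For *Cd3d* this holds against STR/ort at 2-weeks, where STR/ort had 5 to 14 counts in injured and 5 to 19 in uninjured joints. The libraries of 2-weeks were sequenced as a separate batch of 30 from the other 70, so that between 2-weeks and the earlier time points batch and time cannot be told apart.

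In joints of uninjured mice at 0-day, *Cd3d*, the delta subunit, differed most between the strains and was highest in MRL/MpJ. Its level was 24.8, 26.0, 28.8 and 27.4 CPM in the 4 MRL/MpJ libraries. It was 10.3, 5.95, 6.03 and 5.30 CPM in C57BL/6 and 3.49, 1.54, 1.04 and 1.96 CPM in STR/ort. The 3 strains did not overlap, with MRL/MpJ highest, C57BL/6 next and STR/ort lowest. The log2 fold change was 1.90 ± 0.19 (adjusted p = 4.45e-07) between MRL/MpJ and C57BL/6, or 3.74-fold, and 3.69 ± 0.24 (adjusted p = 1.43e-09) between MRL/MpJ and STR/ort, or 12.9-fold. C57BL/6 exceeded STR/ort by 1.78 ± 0.27 (adjusted p = 5.79e-05). The value of 10.3 CPM in C57BL/6 replicate 1 lay apart from the other 3 C57BL/6 libraries, at 5.30 to 6.03 CPM.

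The partner subunits did not show the MRL/MpJ excess over C57BL/6. *Cd3e*, the epsilon subunit, was at 1.94 ± 0.721 CPM in MRL/MpJ, 1.74 ± 0.394 CPM in C57BL/6 and 1.34 ± 0.179 CPM in STR/ort (all SD, n = 4), and passed the test for 0 of the 3 pairs of strains. *Cd3g*, the gamma subunit, was at 5.05 ± 0.440 CPM in MRL/MpJ and 5.04 ± 1.05 CPM in C57BL/6 (log2 fold change -0.05 ± 0.18, adjusted p = 0.85). STR/ort, at 2.39 ± 0.278 CPM, was lower in *Cd3g* than both. MRL/MpJ exceeded it by 1.06 ± 0.20 (adjusted p = 0.000438) and C57BL/6 by 1.12 ± 0.19 (adjusted p = 0.000195). *Cd247*, the zeta chain, ranged from 0.614 to 3.29 CPM over the 12 libraries and passed the test for 0 of the 3 pairs.

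Among the co-receptors, *Cd4* was highest in MRL/MpJ, at 20.5, 23.0, 24.3 and 21.7 CPM. It was 13.7, 12.2, 15.9 and 13.2 CPM in C57BL/6 and 12.2, 11.5, 9.71 and 10.4 CPM in STR/ort. The MRL/MpJ libraries lay above all others, with log2 fold changes of 0.66 ± 0.10 (adjusted p = 7.86e-05) against C57BL/6 and 1.02 ± 0.11 (adjusted p = 9.79e-07) against STR/ort, while C57BL/6 and STR/ort overlapped. *Cd8a*, the alpha chain of CD8, was at 4.29 ± 0.393 CPM, 3.10 ± 0.625 CPM and 1.78 ± 0.592 CPM in MRL/MpJ, C57BL/6 and STR/ort (SD, n = 4). STR/ort was lower than MRL/MpJ by 1.26 ± 0.24 (adjusted p = 0.000416) and lower than C57BL/6 by 0.85 ± 0.24 (adjusted p = 0.00933), and the difference between MRL/MpJ and C57BL/6 missed the threshold (log2 fold change 0.42 ± 0.21, adjusted p = 0.141). With 1 RUVg factor, a term for unwanted variation estimated from housekeeping genes, the difference between C57BL/6 and STR/ort was no longer called (log2 fold change 0.76, adjusted p = 0.111).

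Of the kinases, *Lck* was at 7.15, 5.28 and 5.72 CPM in the 3 strains in the same order and passed the test for 0 of the 3 pairs. *Zap70* was near 1 CPM in MRL/MpJ and C57BL/6, with means of 1.27 and 1.14 CPM, and at 0.484 CPM in STR/ort. The *Zap70* difference to STR/ort was 1.41 ± 0.42 (adjusted p = 0.0132) for MRL/MpJ and 1.23 ± 0.40 (adjusted p = 0.0231) for C57BL/6. Leaving out MRL/MpJ replicate 1 took the former past the limit (adjusted p = 0.0792, edgeR). The latter was lost without C57BL/6 replicate 2 (adjusted p = 0.0519), without C57BL/6 replicate 3 (adjusted p = 0.0579) and without STR/ort replicate 4 (adjusted p = 0.0736), and with the RUVg factor (adjusted p = 0.208). *Jak3* was higher in MRL/MpJ, at 23.3, 28.0, 22.4 and 22.2 CPM, against 17.2, 13.3, 15.4 and 13.6 CPM in C57BL/6 and 15.0, 15.0, 18.5 and 14.5 CPM in STR/ort. Every MRL/MpJ library exceeded every other one, with log2 fold changes of 0.65 ± 0.11 (adjusted p = 0.00013) against C57BL/6 and 0.60 ± 0.11 (adjusted p = 0.000309) against STR/ort. The fold change against STR/ort lay just past 1.5 and fell below it when MRL/MpJ replicate 2 was left out, at 0.51 on the log2 scale, and likewise without STR/ort replicate 1 (0.58) or 4 (0.57). With the RUVg factor the difference against C57BL/6 fell short of it as well (0.56).

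*Il7r* had another order, with C57BL/6 highest and MRL/MpJ lowest. Its level was 30.3, 30.4, 36.2 and 28.6 CPM in C57BL/6, 22.0, 22.0, 20.7 and 19.4 CPM in STR/ort and 16.2, 16.9, 12.1 and 16.2 CPM in MRL/MpJ. The 3 strains did not overlap, but MRL/MpJ and STR/ort, with means of 15.3 and 21.0 CPM, were not called apart. On the log2 scale *Il7r* differed by -1.06 ± 0.10 (adjusted p = 3.73e-07) between MRL/MpJ and C57BL/6 and by 0.61 ± 0.10 (adjusted p = 0.00011) between C57BL/6 and STR/ort. The latter fold was close to the limit of 1.5 and fell short of it without C57BL/6 replicate 3 (log2 fold change 0.54) and without STR/ort replicate 4 (0.58), and also with RLE size factors, the RUVg factor and DESeq2 (0.57 to 0.58).

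In all, 4 of the 10 genes were called at 0-day between MRL/MpJ and C57BL/6, where 15.9% of all genes were. The counts were 6 of 10 between MRL/MpJ and STR/ort, against 14.8% of all genes, and 5 of 10 between C57BL/6 and STR/ort, against 13.8%. The count of 5 fell to 3 without C57BL/6 replicate 3 or STR/ort replicate 4, where *Zap70* and *Il7r* were lost, and to 2 with the RUVg factor, where *Cd8a* was lost too. All 11 calls against STR/ort were in the direction of lower levels in STR/ort. The median log2 fold change of the 10 genes was 0.29, 0.82 and 0.54 for these 3 comparisons, and that of all genes was -0.01, -0.01 and 0.06.

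**Figure D1:**
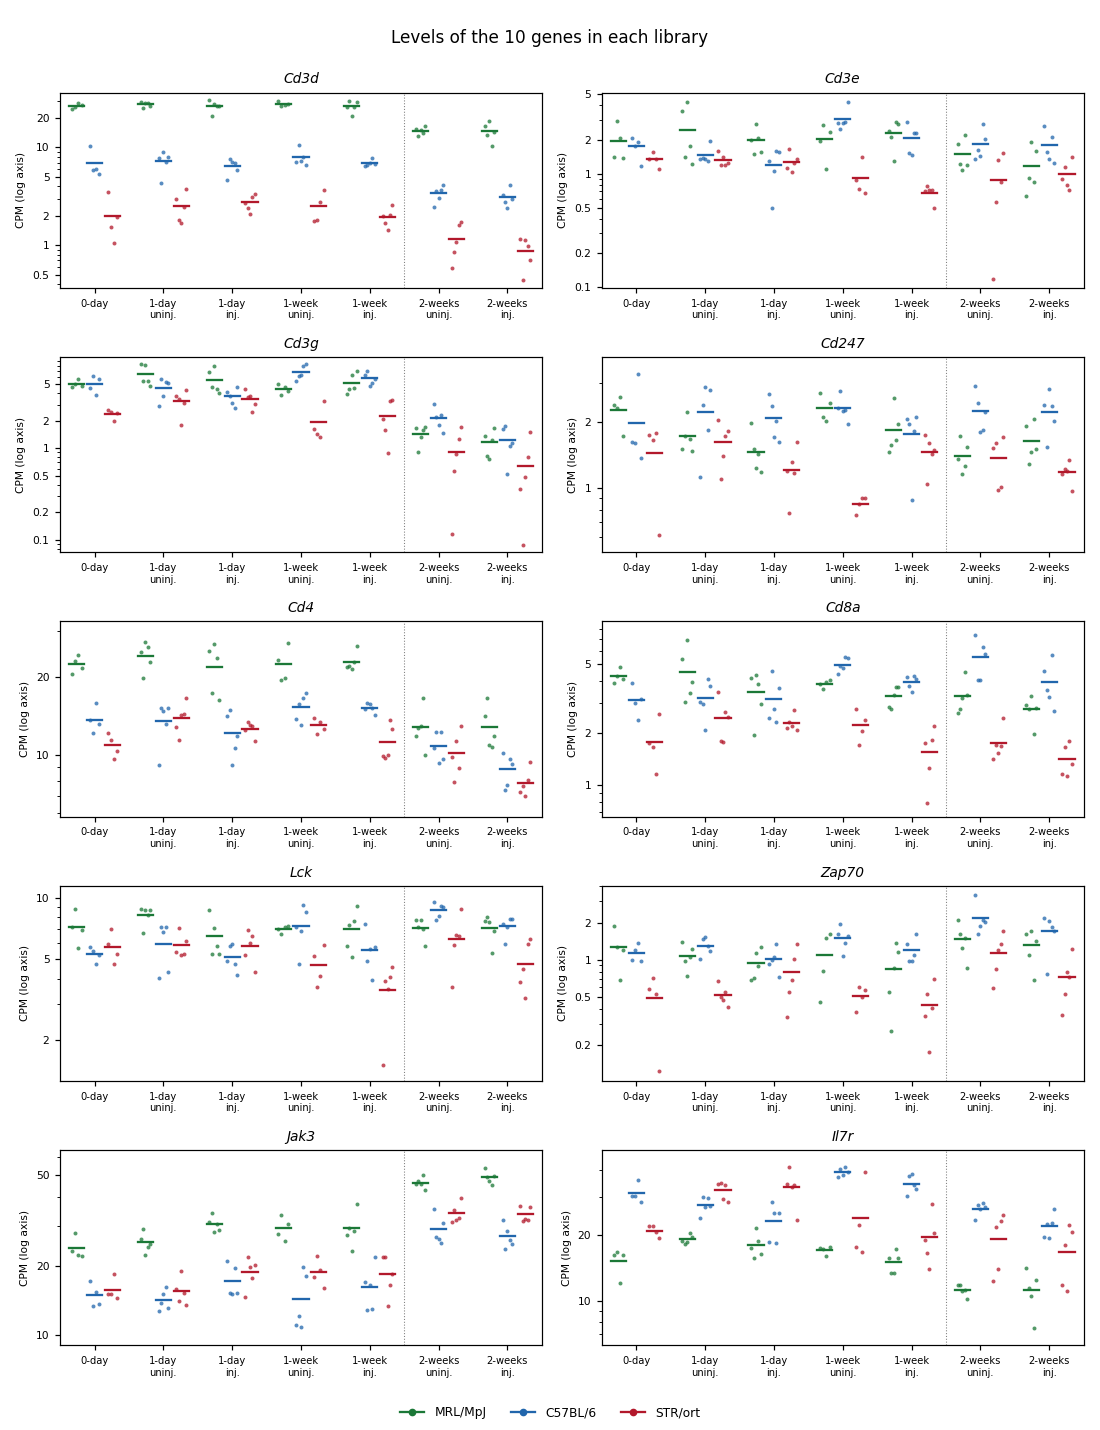
Levels of the 10 genes in each of the 100 libraries, in CPM on a log axis, 1 panel per gene; each point is a library, each short line a group mean, colours give the strain and the dotted line separates the 2-weeks batch. The MRL/MpJ libraries lie above all others for *Cd3d* at every time point, while *Il7r* at 0-day is highest in C57BL/6.

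Set per kilobase of exon, to compare genes with each other, *Cd3d* led the 10 genes in MRL/MpJ at 0-day, with 16.5 ± 1.07 CPM per kb (SD, n = 4). *Cd4* followed with 7.20 ± 0.529, *Jak3* with 5.43 ± 0.619, *Cd3g* with 4.94 ± 0.430 and *Il7r* with 4.33 ± 0.622 CPM per kb, and the last 3 differed by less than the sum of their SDs. In C57BL/6 and STR/ort *Il7r* led, with 8.86 ± 0.934 and 5.94 ± 0.358 CPM per kb, and *Cd3d* was in the 4th and the 6th place, with 4.27 ± 1.42 and 1.24 ± 0.654. *Cd247* and *Zap70* took the last 2 places in all 3 strains, between 0.216 and 0.565 CPM per kb. The constant regions of the receptor's alpha and beta chains, *Trac*, *Trbc1* and *Trbc2*, which were added after the levels were seen, were at 3.12 ± 1.29, 2.58 ± 0.708 and 1.04 ± 0.369 CPM per kb in MRL/MpJ. Exon lengths were taken from the GENCODE annotation of GRCm38.p6 and may differ from the gene models used for counting.

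**Figure D2:**
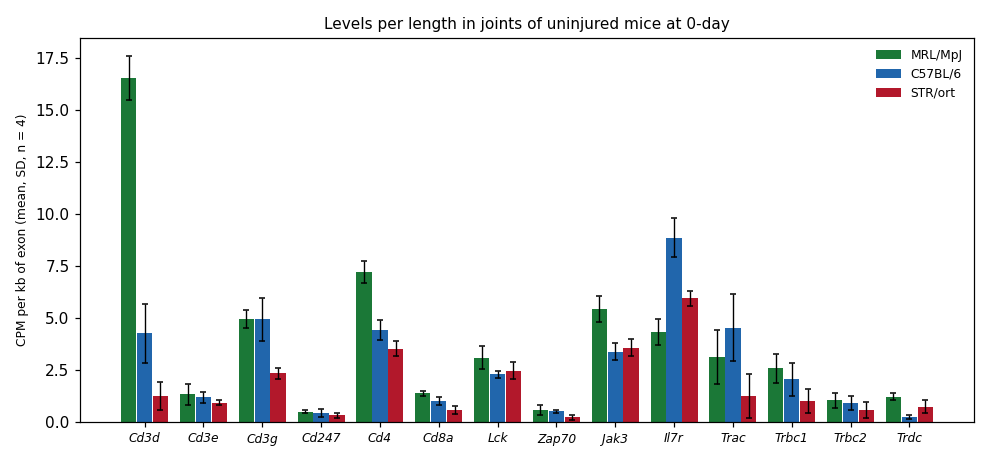
Levels at 0-day in CPM per kb of exon, from 0, for the 10 genes and 4 constant-region genes of the receptor chains; bars are means, whiskers SD, n = 4 libraries for each strain. *Cd3d* of MRL/MpJ stands at 16.5 CPM per kb, and *Cd3e*, *Cd247* and *Zap70* at 1.33 or less in every strain.

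The strain order of *Cd3d* held at every time point and in both joints. At 1-day the injured joints of MRL/MpJ had 30.3, 21.0, 28.0, 26.4 and 26.6 CPM and the uninjured ones 29.4, 25.1, 28.4, 28.7 and 26.4 CPM. C57BL/6 had 4.66, 7.67, 7.09, 6.89 and 5.89 CPM in injured and 7.86, 4.32, 8.93, 7.06 and 7.98 CPM in uninjured joints. STR/ort had 2.73, 2.42, 2.07, 3.14 and 3.34 and 2.94, 1.79, 1.68, 2.47 and 3.79 CPM. Within each strain the 2 joints overlapped, and between strains of 1 joint no library crossed over. The log2 fold change between MRL/MpJ and C57BL/6 was 1.90 ± 0.15 (adjusted p = 1.35e-11) in uninjured and 2.02 ± 0.15 (adjusted p = 6.79e-12) in injured joints.

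At 1-week *Cd3d* was at 25.7, 30.1, 21.0, 26.1 and 29.0 CPM in injured and 29.7, 26.6, 27.0 and 28.0 CPM in uninjured joints of MRL/MpJ. C57BL/6 had 6.39, 6.59, 6.87, 7.89 and 6.78 CPM and 7.16, 10.6, 7.33, 7.94 and 6.68 CPM in the same order. STR/ort had 1.97, 1.70, 1.43, 2.03 and 2.59 CPM and 1.76, 1.81, 2.79 and 3.72 CPM. The groups of different strains again did not overlap within a joint. MRL/MpJ exceeded C57BL/6 by 1.81 ± 0.14 (adjusted p = 1.76e-11) in uninjured and 1.92 ± 0.13 (adjusted p = 1.53e-12) in injured joints.

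At 2-weeks the values were lower in all 3 strains, with 16.6, 13.5, 18.8, 10.3 and 14.3 CPM in injured and 15.4, 13.2, 15.1, 13.9 and 16.5 CPM in uninjured joints of MRL/MpJ. C57BL/6 had 3.28, 2.76, 2.39, 4.15 and 2.98 CPM and 2.47, 3.60, 3.03, 3.67 and 4.15 CPM. STR/ort had 1.16, 0.439, 1.12, 0.990 and 0.706 CPM and 0.587, 0.846, 1.09, 1.60 and 1.71 CPM. The strains did not overlap, and the difference between MRL/MpJ and C57BL/6 was 2.13 ± 0.17 (adjusted p = 4.63e-11) in uninjured and 2.21 ± 0.17 (adjusted p = 1.62e-11) in injured joints. Over all 21 comparisons between strains, which share libraries, *Cd3d* was called 21 times, with log2 fold changes of 1.81 to 2.21 between MRL/MpJ and C57BL/6, 3.26 to 4.03 between MRL/MpJ and STR/ort and 1.24 to 1.84 between C57BL/6 and STR/ort. Each of these calls held in every alternative setting and with each library left out.

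**Figure D3:**
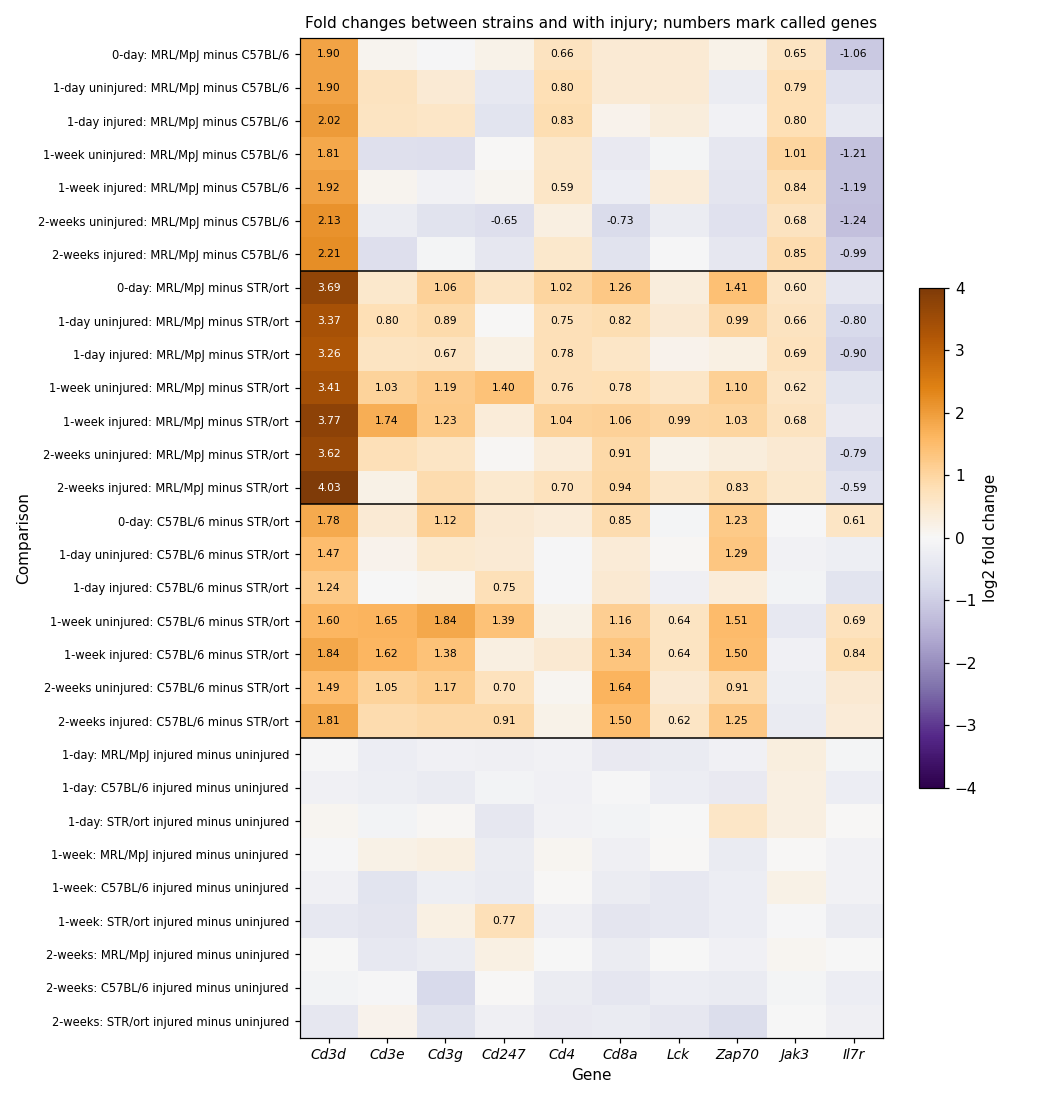
Log2 fold changes of the 10 genes (columns) in the 21 comparisons between strains and the 9 between injured and uninjured joints (rows); the colour gives the size, and a number is printed where the gene was called. The *Cd3d* column carries a number in all 21 strain comparisons, from 1.24 to 4.03, and the 9 injury comparisons carry 1 number in all, 0.77 for *Cd247* in STR/ort at 1-week.

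*Cd3d* was also set against its partners within each library, as the count of *Cd3d* over the summed counts of *Cd3e*, *Cd3g* and *Cd247*, which does not depend on the scaling of the library. This ratio was chosen after the levels had been seen. It was 2.93 ± 0.386 in MRL/MpJ, 0.797 ± 0.304 in C57BL/6 and 0.389 ± 0.186 in STR/ort at 0-day (SD, n = 4). Over the 7 groups of each strain the mean ratio ranged from 2.77 to 3.75 in MRL/MpJ, from 0.555 to 0.956 in C57BL/6 and from 0.327 to 0.670 in STR/ort. MRL/MpJ did not overlap with either other strain in any of 14 comparisons, and each of these had the smallest p that its group sizes allow in a two-sided exact permutation test, 0.0286 for 4 against 4 libraries and 0.00794 for 5 against 5 or 5 against 4. Adjusted over 30 comparisons of the ratio these exact tests gave p = 0.0429 and p = 0.017. Over other denominators, these comparisons of MRL/MpJ gave log2 differences of 1.28 to 3.88 for *Cd3e* alone, 1.47 to 2.87 for *Cd3g* alone and 1.84 to 3.82 for *Trac*, *Trbc1* and *Trbc2*, and the exact adjusted p missed 0.05 in 4, 3 and 3 of the 14. The 3 comparisons of 4 against 4 libraries missed it each time, at the smallest p they allow, and over *Cd3e* the injured joints of MRL/MpJ and C57BL/6 at 1-day missed it and overlapped (exact p = 0.0317, adjusted p = 0.0528). Over the 3 partners together the log2 difference in ratio between MRL/MpJ and C57BL/6 ranged from 1.63 to 2.65, and that between MRL/MpJ and STR/ort from 2.25 to 3.54. Between C57BL/6 and STR/ort it ranged from -0.04 to 1.13 and passed the exact test in 5 of 7 comparisons, but over *Cd3e* alone or over *Trac*, *Trbc1* and *Trbc2* it passed in 2 of 7 and over *Cd3g* alone in 0 of 7, so that the call depended on the denominator. At 0-day, without C57BL/6 replicate 1, the log2 difference was 0.83 with an exact permutation p of 0.114. Without C57BL/6 replicate 2, 3 or 4 it was 1.17, 1.14 and 1.15, each with an exact permutation p of 0.0571. Between injured and uninjured joints it passed in 1 of 9, STR/ort at 1-week (log2 difference -0.56, exact adjusted p = 0.017), where the ratio to *Cd3e* alone gave 0.04.

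**Figure D4:**
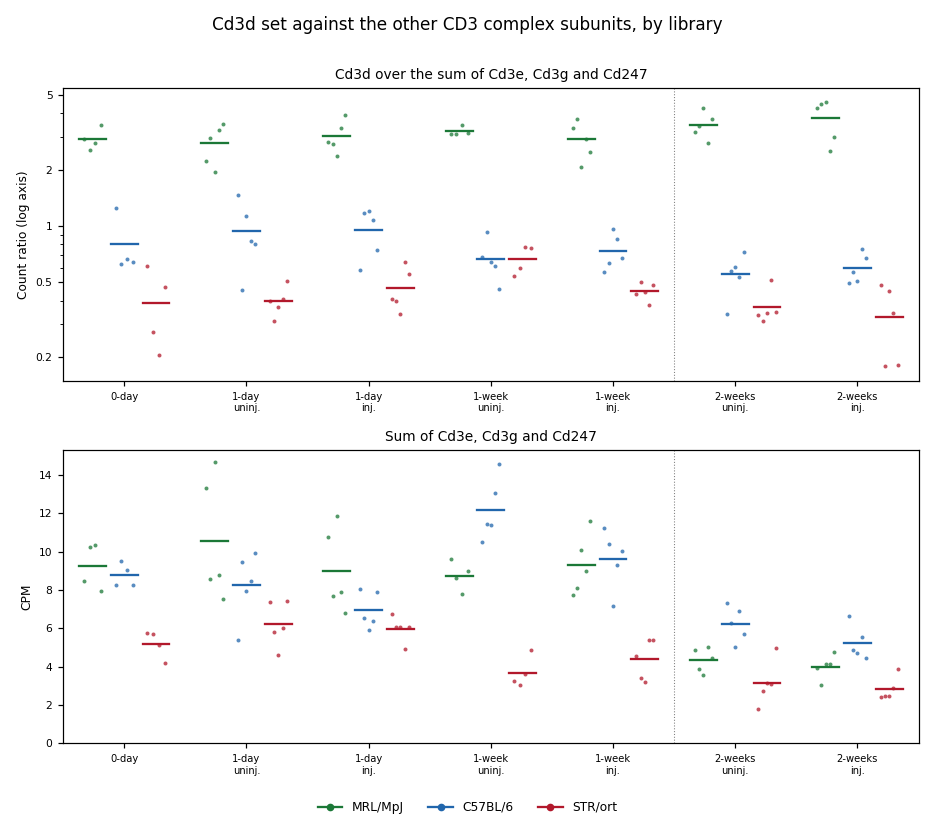
Upper panel, count of *Cd3d* over the summed counts of *Cd3e*, *Cd3g* and *Cd247* in each library on a log axis; lower panel, the summed level of these 3 partner genes in CPM, from 0. Points are libraries, short lines group means and the dotted line separates the 2-weeks batch; the lowest MRL/MpJ point is at 1.93 in the upper panel, while in the lower panel MRL/MpJ and C57BL/6 have similar sums at 0-day.

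The other genes near *Cd3d* were looked at for the same pattern. Within 250 kb on each side of its start 12 genes other than the 10 described here were tested at 0-day. Between MRL/MpJ and C57BL/6, 1 of the 12 was called, *Tmem25*, which was higher in MRL/MpJ, against 15.9% of all genes, and their log2 fold changes ranged from -0.46 to 0.92. Between MRL/MpJ and STR/ort 1 was called, *Scn4b*, which was lower, against 14.8%, and the range was -0.84 to 0.51. Between C57BL/6 and STR/ort both were called lower in C57BL/6, against 13.8%, and the range was -1.16 to 0.27. The value of *Cd3d* lay outside all 3 ranges, but *Cd3d* had been singled out for its large differences, so this is no test. *Tmem25* and *Scn4b* were named after their values were seen.

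Of the constant regions of the receptor's own chains, *Trac*, the alpha chain, gave a different order from *Cd3d*, with mean levels of 1.29, 1.87 and 0.515 CPM in MRL/MpJ, C57BL/6 and STR/ort at 0-day. Between MRL/MpJ and C57BL/6 the difference at 0-day missed the threshold (log2 fold change -0.53 ± 0.39, adjusted p = 0.318), and at 2-weeks it was lower in MRL/MpJ, with log2 fold changes of -1.09 ± 0.24 (adjusted p = 0.00107) in uninjured and -1.53 ± 0.26 (adjusted p = 2.85e-05) in injured joints. C57BL/6 exceeded STR/ort in *Trac* at 0-day by 1.84 ± 0.45 (adjusted p = 0.00353). The beta chain means had the order of *Cd3d*, with 1.32, 1.04 and 0.507 CPM for *Trbc1* and 0.720, 0.615 and 0.393 CPM for *Trbc2*, and MRL/MpJ and C57BL/6 were not called apart in either (log2 fold change 0.33 ± 0.38, adjusted p = 0.532 for *Trbc1* and log2 fold change 0.22 ± 0.44, adjusted p = 0.74 for *Trbc2*). *Trdc*, the delta chain of gamma-delta T cells, was at 4.39, 4.65, 5.51 and 4.14 CPM in MRL/MpJ, 0.815, 1.45, 0.548 and 0.982 CPM in C57BL/6 and 4.46, 2.61, 1.77 and 2.45 CPM in STR/ort. It was higher in MRL/MpJ than in C57BL/6 by 2.22 ± 0.30 (adjusted p = 1.54e-05) and was called in the same direction in all 7 comparisons of these strains. In contrast to *Cd3d*, it was lower in C57BL/6 than in STR/ort, with a log2 fold change of -1.52 ± 0.32 (adjusted p = 0.0011).

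At the later time points the uninjured contralateral joints kept the *Jak3* order. MRL/MpJ was called higher than C57BL/6 in *Jak3* in all 7 comparisons, with log2 fold changes of 0.65 to 1.01, and at 1-week the uninjured joints had 27.6, 33.4, 25.8 and 30.6 CPM in MRL/MpJ and 11.1, 12.1, 10.8, 19.8 and 18.2 CPM in C57BL/6. Against STR/ort *Jak3* was called in 5 of 7, with 0.60 to 0.69, and missed the fold of 1.5 at 2-weeks with 0.45 in uninjured and 0.53 in injured joints. Each of the 5 calls was close to that fold and was lost in some setting, at 0-day as given above, at 1-day with the RUVg factor (0.52 in uninjured and 0.55 in injured joints), and at 1-week without MRL/MpJ replicate 2 (0.55) or STR/ort replicate 4 (0.55) in uninjured and without MRL/MpJ replicate 5 (0.58) in injured joints. *Cd4* was called higher in MRL/MpJ than in C57BL/6 in 4 of 7 comparisons. The 4 were at 0-day, both joints of 1-day and injured joints of 1-week, where the fold of 1.5 was only just passed (log2 fold change 0.59 ± 0.10, adjusted p = 6.5e-05) and was lost without MRL/MpJ replicate 4 (0.58) or 5 (0.53) and C57BL/6 replicate 1 (0.57) or 5 (0.56), and also with RLE size factors (0.58), DESeq2 (0.58) and filterByExpr (0.57). *Il7r* was called lower in MRL/MpJ than in C57BL/6 in 5 of 7 comparisons, with log2 fold changes of -0.99 to -1.24. At 1-day both joints missed the fold, with -0.57 and -0.38. Against STR/ort *Il7r* was called lower in MRL/MpJ in both joints of 1-day (-0.80 and -0.90) and of 2-weeks (-0.79 and -0.59). Both calls of 1-day were lost with the RUVg factor (-0.32, adjusted p = 0.222, and -0.41, adjusted p = 0.133). That of injured joints at 2-weeks was lost with RLE size factors (-0.56), the RUVg factor (-0.49) and DESeq2 (-0.57) and without MRL/MpJ replicate 3 (-0.57) or 4 (-0.44) or STR/ort replicate 2 (-0.56), 4 (-0.47) or 5 (-0.50).

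STR/ort had the lowest levels of most T cell genes at 1-week. Between C57BL/6 and STR/ort 8 of the 10 genes were called in uninjured and 7 in injured joints, all higher in C57BL/6, against 22.2% and 25.1% of all genes. *Cd3e* had 2.77, 2.49, 2.77, 2.83 and 4.33 CPM in the uninjured joints of C57BL/6 and 0.879, 0.725, 1.40 and 0.675 CPM in those of STR/ort, without overlap. The difference was 1.65 ± 0.29 (adjusted p = 3.13e-05). *Cd3g* differed by 1.84 ± 0.27 (adjusted p = 2.53e-06), *Cd247* by 1.39 ± 0.25 (adjusted p = 3.4e-05), *Zap70* by 1.51 ± 0.38 (adjusted p = 0.00196) and *Cd8a* by 1.16 ± 0.18 (adjusted p = 4.26e-06). *Lck* was called with 0.64 ± 0.22 (adjusted p = 0.0183), a call lost without C57BL/6 replicate 4 (adjusted p = 0.0572), STR/ort replicate 2 (0.069) or STR/ort replicate 3 (0.0561). With the RUVg factor *Cd247* (log2 fold change 1.02, adjusted p = 0.0529) and *Il7r* (0.69, adjusted p = 0.0758) were lost, and *Il7r* also fell short of the fold without STR/ort replicate 1 (0.58) or 3 (0.55). In injured joints *Lck* was lost without C57BL/6 replicate 1 (0.49) or 5 (0.58) or STR/ort replicate 1 (0.45). Between MRL/MpJ and STR/ort 8 of 10 were called at 1-week in each joint, all higher in MRL/MpJ, against 24.4% of all genes in uninjured and 29.5% in injured joints. The *Zap70* call was lost there with the RUVg factor in uninjured (adjusted p = 0.071) and injured joints (adjusted p = 0.057) and in 5 fits that left out 1 library in each joint (adjusted p = 0.0518 to 0.141 and 0.0523 to 0.122), and that of *Cd247* in uninjured joints with the RUVg factor (adjusted p = 0.104).

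At 1-day the count between C57BL/6 and STR/ort was smaller. Between them 2 of 10 were called in uninjured joints, *Cd3d* and *Zap70*, and 2 in injured joints, *Cd3d* and *Cd247*, against 10.5% and 12.4% of all genes. Between MRL/MpJ and C57BL/6 the same 3 genes, *Cd3d*, *Cd4* and *Jak3*, were called in both joints, against 14.8% of all genes in uninjured and 16.3% in injured joints. With the RUVg factor the 3 calls of uninjured joints became 6, with *Cd3g* (0.79), *Cd8a* (0.82) and *Lck* (0.70) higher in MRL/MpJ too, and *Cd3g* was added in injured joints (0.87). *Cd3e* was added in uninjured joints with filterByExpr (0.68) and in 4 fits that left out 1 library. Between MRL/MpJ and STR/ort the counts were 8 and 5 of 10, against 22.6% and 20.3%. Of these, *Cd3e* in uninjured joints was lost with the RUVg factor (adjusted p = 0.131) and without MRL/MpJ replicate 1 (0.0793) or 3 (0.131), *Zap70* in uninjured joints with the RUVg factor (0.403), which also added *Lck* and left 5 calls there, and *Cd3g* in injured joints without MRL/MpJ replicate 1 (0.0524) or 3 (0.0753) or STR/ort replicate 4 (0.0513). *Cd247* between C57BL/6 and STR/ort was lost with the RUVg factor (0.0629). At 1-week 3 and 4 of 10 were called between MRL/MpJ and C57BL/6 in uninjured and injured joints, against 8.53% and 9.47%.

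At 2-weeks, as at 1-week, the *Cd8a* means had the order C57BL/6, MRL/MpJ, STR/ort in both joints. In uninjured joints it was at 7.40, 4.07, 4.07, 6.33 and 5.72 CPM in C57BL/6, 2.62, 2.74, 3.21, 4.52 and 3.34 CPM in MRL/MpJ and 1.41, 1.69, 1.53, 1.68 and 2.43 CPM in STR/ort. STR/ort did not overlap with the others, and MRL/MpJ overlapped with C57BL/6. The difference between C57BL/6 and STR/ort was 1.64 ± 0.22 (adjusted p = 8.37e-07), and that between MRL/MpJ and C57BL/6 was -0.73 ± 0.19 (adjusted p = 0.00501), a call lost with the RUVg factor (-0.53, adjusted p = 0.0553). *Cd247* was lower in MRL/MpJ than in C57BL/6, with -0.65 ± 0.19 (adjusted p = 0.0128), a call lost without C57BL/6 replicate 1 (log2 fold change -0.55, adjusted p = 0.0691). In uninjured and injured joints 5 and 3 of 10 genes were called between MRL/MpJ and C57BL/6, against 9.83% and 11.5% of all genes. The counts were 3 and 5 between MRL/MpJ and STR/ort, against 13.8% and 18.9%, and 6 and 5 between C57BL/6 and STR/ort, against 9.78% and 10.4%. The count of 3 rose to 5 with the RUVg factor, where *Cd3e* (log2 fold change 0.96, adjusted p = 0.0317) and *Cd3g* (1.06, adjusted p = 0.016) were called as well. The count of 6 fell to 3 without STR/ort replicate 1 or 2, where *Cd3e*, *Cd3g* and *Zap70* were lost. The count of 5 between MRL/MpJ and STR/ort in injured joints fell to 3 without MRL/MpJ replicate 3 or STR/ort replicate 2, where *Zap70* and *Il7r* were lost. That *Zap70* call was lost in 7 of 10 fits that left out 1 library. Between C57BL/6 and STR/ort the uninjured *Cd3e* call was lost in 5 of 10 such fits. The injured *Lck* call of these strains was lost with the RUVg factor (0.58) and without STR/ort replicate 1 (0.56) or 3 (0.50).

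Injury left the 10 genes without a call in 8 of 9 comparisons of injured with uninjured joints. The share of all genes called was 2.02%, 5.6% and 4.31% in MRL/MpJ, C57BL/6 and STR/ort at 1-day, 3.13% and 5.82% in MRL/MpJ and C57BL/6 at 1-week, and 1.16%, 2.95% and 4.66% in the 3 strains at 2-weeks. At 1-day the 8 genes other than *Jak3* and *Il7r* had log2 fold changes of -0.43 to 0.58, and *Jak3* had 0.29, 0.28 and 0.25 in MRL/MpJ, C57BL/6 and STR/ort (adjusted p = 0.129, 0.0796 and 0.151, edgeR). The *Il7r* means, in the same order, were 18.0, 23.3 and 33.4 CPM in injured and 19.2, 27.7 and 32.4 CPM in uninjured joints. *Cd3d* changed by at most 0.43 in size in any of the 9 comparisons. An unadjusted p below 0.05 was reached by 2, 2 and 1 of the 10 genes at 1-day in MRL/MpJ, C57BL/6 and STR/ort, by 0, 3 and 2 at 1-week and by 0, 2 and 2 at 2-weeks. With DESeq2 0 genes were called in all 9, while the RUVg factor called *Cd3e* lower in the injured joints of C57BL/6 at 1-week (log2 fold change -0.67, adjusted p = 0.0409). In C57BL/6 at 2-weeks, where both joints of a pair carry 1 code in the labels, taken here as the animal, a fit with the pairs as blocks called *Cd3g* lower in injured joints (log2 fold change -0.83, adjusted p = 0.0266) against -0.79 and an adjusted p of 0.187 without the block. Its levels were 1.64, 1.76, 0.520, 1.06 and 1.15 CPM in the injured and 3.03, 2.21, 1.80, 2.29 and 1.48 CPM in the uninjured joints. The 2 groups overlap, but within each of the 5 pairs the injured joint was the lower one. *Cd4*, *Cd8a*, *Lck* and *Il7r* were lower in the injured joint of all 5 pairs too and were not called in the blocked fit. Without injured replicate 4 *Cd8a* was called lower there (log2 fold change -0.64, adjusted p = 0.0472). The other strains carry such codes at 2-weeks as well. In STR/ort *Cd4*, *Zap70* and *Il7r* were lower in the injured joint of all 5 pairs, and in MRL/MpJ *Cd3g* was. The blocked fit called 0 genes in either strain.

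The comparison with a call was that of STR/ort at 1-week. *Cd247* was at 1.74, 1.04, 1.60, 1.42 and 1.49 CPM in the 5 injured and 0.754, 0.846, 0.904 and 0.901 CPM in the 4 uninjured joints. All injured joints lay above all uninjured ones, and the difference was 0.77 ± 0.26 (adjusted p = 0.045), where 9.21% of all genes were called. The call was lost in 8 of the 9 fits that left out 1 of these libraries, with adjusted p values of 0.0503 to 0.102, and held only without injured replicate 2. It was also lost with DESeq2 (adjusted p = 0.0743) and with the replicate numbers as blocks (adjusted p = 0.0919), a fit to which injured replicate 5, which has no partner, adds nothing. In that blocked fit *Cd8a* was called lower in injured joints (log2 fold change -0.67, adjusted p = 0.0341), with 1.74, 0.783, 1.25, 1.83 and 2.19 CPM in injured and 2.76, 1.69, 2.06 and 2.36 CPM in uninjured joints, where the fit without the block gave -0.49 and an adjusted p of 0.122. The uninjured group of STR/ort at 1-week had the lowest mean *Cd247* level of all 21 groups, 0.851 CPM.

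Markers of other cells were also called in the same joints of STR/ort, where, as above, 9.21% of all genes were. At 1-week the summed level of 9 NK and cytotoxic genes was 20.3 to 32.6 CPM in injured and 33.6 to 43.6 CPM in uninjured joints, with 4 of 9 called lower. For 12 B cell genes it was 100.2 to 235.6 and 206.0 to 362.7 CPM, with 2 of 12 lower, and for 5 skeletal muscle genes 4 of 5 were lower. Of 21 other genes of T cell receptor signalling 5 were called lower and 0 higher. The part of these other cells in the values of the 10 genes was not tested.

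The effect of injury on the 10 genes did not pass the test of a difference between strains in any of 9 interactions. For MRL/MpJ against C57BL/6, MRL/MpJ against STR/ort and C57BL/6 against STR/ort, 0.318%, 0.162% and 2.66% of all genes were called at 1-day, 0%, 0.884% and 0.491% at 1-week and 0%, 0.451% and 0.0462% at 2-weeks. At an unadjusted p below 0.05, 0, 0 and 1 of the 10 genes stood out at 1-day, 1, 1 and 1 at 1-week and 0, 0 and 0 at 2-weeks. The smallest adjusted p was that of *Cd247* at 1-week between C57BL/6 and STR/ort (log2 fold change -1.11 ± 0.33, adjusted p = 0.121). DESeq2 gave 0 calls in these 9 as well.

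Uninjured contralateral joints were also compared with the joints of 0-day mice within the batch that holds both. In MRL/MpJ 0 of 10 genes were called at 1-day and at 1-week, against 0.0867% and 0% of all genes, and 1 and 1 had an unadjusted p below 0.05. In C57BL/6 0 were called at 1-day, against 0.0635%, with 0 at an unadjusted p below 0.05. At 1-week 1 was called, against 5.69%, with 5 at an unadjusted p below 0.05. The called gene was *Cd8a*, at 4.39, 4.86, 4.74, 5.51 and 5.41 CPM at 1-week and 3.89, 2.98, 2.37 and 3.14 CPM at 0-day, without overlap (log2 fold change 0.66 ± 0.21, adjusted p = 0.0249). The call was lost without 0-day replicate 2 (adjusted p = 0.061), 3 (0.0934) or 4 (0.0584) and without 1-week replicate 4 (0.0535), while RLE size factors, the RUVg factor, DESeq2 and filterByExpr each called *Cd3e* in addition. In STR/ort *Il7r* was called at 1-day, against 10% of all genes, with 34.4, 35.1, 29.3, 34.2 and 28.7 CPM at 1-day and 22.0, 22.0, 20.7 and 19.4 CPM at 0-day (log2 fold change 0.65 ± 0.13, adjusted p = 0.000311). An unadjusted p below 0.05 was reached there by 3 of the 10 genes. The *Il7r* call was lost with the RUVg factor (adjusted p = 0.163), and without 1-day replicate 3 *Cd3g* was called too (log2 fold change 0.66, adjusted p = 0.0381). At 1-week in STR/ort 0 were called, against 13.8%, with 1 at an unadjusted p below 0.05. Without 0-day replicate 4 *Cd247* was called lower there (log2 fold change -0.98, adjusted p = 0.0173). With DESeq2 the 2 comparisons of MRL/MpJ, that of C57BL/6 at 1-day and that of STR/ort at 1-week also gave 0 calls.

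The other genes of the pathway were followed as lists. Of 22 further genes of T cell receptor signalling 21 were in the table, and at 0-day 2 were higher and 1 lower in MRL/MpJ than in C57BL/6, with a median log2 fold change of -0.03 against -0.01 for all genes, of which 15.9% were called. MRL/MpJ exceeded STR/ort in 4 of 21 with 0 lower, and C57BL/6 exceeded STR/ort in 5 with 1 lower, against 14.8% and 13.8% of all genes. The 4 of these genes with the highest levels were *Lcp2*, an adaptor, *Fyn*, a kinase related to Lck, *Prkcq*, a kinase downstream of the receptor, and *Grap2*, an adaptor that binds Lcp2. *Lcp2* was at 90.3 CPM in MRL/MpJ and 100.4 CPM in C57BL/6, with 0 calls at 0-day. *Grap2* was lower in STR/ort than in MRL/MpJ (0.81 ± 0.12, adjusted p = 2.8e-05, MRL/MpJ minus STR/ort) and C57BL/6 (0.83 ± 0.11, adjusted p = 1.82e-05). *Prkcq* was higher in STR/ort than in C57BL/6 (-0.62 ± 0.09, adjusted p = 6.5e-05, C57BL/6 minus STR/ort). At 1-week C57BL/6 exceeded STR/ort in 8 of the 21 in uninjured and 12 in injured joints, against 22.2% and 25.1% of all genes.

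Of 14 genes of the gamma-chain cytokine receptor pathway, to which Jak3 and Il7r belong, 6 were lower and 0 higher in MRL/MpJ than in C57BL/6 at 0-day, against 15.9% of all genes called in either direction. *Il2rg*, the shared gamma chain, was lower (-0.63 ± 0.10, adjusted p = 0.000102), as was *Il4ra*, the interleukin-4 receptor alpha chain (-1.12 ± 0.12, adjusted p = 1.55e-06), opposite to *Jak3* and in the direction of *Il7r*. *Jak1*, the kinase that pairs with Jak3, was at 339 and 310.1 CPM and *Stat5b*, their target, at 108 and 92.9 CPM, without a call. Of 6 genes of T cell homing 1 was lower in MRL/MpJ, *S1pr1* (-0.69 ± 0.09, adjusted p = 8.56e-06), a receptor for exit from lymphoid organs that endothelial cells express strongly.

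The joints of the 3 strains also differed at 0-day in markers of other cells, and the counts between MRL/MpJ and C57BL/6 that follow stand against 15.9% of all genes called. The summed level of 12 B cell and precursor genes was 194.9 to 230.3 CPM in MRL/MpJ, 330.8 to 458.1 in C57BL/6 and 281.8 to 388.1 in STR/ort, with MRL/MpJ lowest as for *Il7r* and the other strains overlapping, and 10 of the 12 passed the test as lower in MRL/MpJ than C57BL/6. For 6 monocyte and macrophage genes the sums were 407.1 to 453.5, 592.0 to 631.1 and 324.7 to 410.8 CPM, with 4 of 6 lower in MRL/MpJ than in C57BL/6, and for 6 dendritic cell genes 50.5 to 55.2, 61.8 to 66.9 and 48.0 to 56.7 CPM, so that C57BL/6, not MRL/MpJ as for *Cd4*, had the highest sums. The 9 NK and cytotoxic genes summed to 35.9 to 47.1, 39.2 to 48.0 and 35.2 to 39.6 CPM. Erythroid genes had the order of *Cd3d*, with 5 genes at 3825 to 4689, 2473 to 2935 and 1733 to 1902 CPM in MRL/MpJ, C57BL/6 and STR/ort. No marker of these B cell, monocyte, dendritic, NK and erythroid lists was at 0 throughout a group. Bone and cartilage genes were lower in MRL/MpJ than in C57BL/6 (3 and 5 of 5 called), and 5 of 5 skeletal muscle genes were higher. Of 6 marrow neutrophil genes 0 were called between these strains, with sums of 8632 to 10695 CPM in MRL/MpJ and 8031 to 9526 CPM in C57BL/6. Of 6 genes of lymph node stroma 1 was higher and 2 lower in MRL/MpJ, and 1 of the 6 was at 0 throughout C57BL/6 and 1 throughout STR/ort. The part of these cells in the strain differences was not tested.

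Some of the 10 genes share exons with another annotated gene, and whether the reads were counted by strand is not given in the sources used here. *Jak3* overlaps *Insl3*, which was at 0.407, 0.115 and 0.369 CPM in MRL/MpJ, C57BL/6 and STR/ort at 0-day, far below *Jak3*. *Cd247* overlaps *Pou2f1*, at 19.6, 19.8 and 21.8 CPM, *Cd3e* overlaps *Gm48719*, and *Lck* a microRNA gene. Reads of such a pair cannot be told apart where their exons coincide without strand.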

How the data were processed

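RNA from whole knee joints was sequenced after poly(A) selection, in 100 libraries. The authors aligned reads to mm10 with TopHat2 2.0.11, counted reads per RefSeq gene with featureCounts and deposited the raw counts in 1 table. Of 17313 rows, 3 repeated genes were dropped, leaving 17310. Libraries held 6182016 to 20986027 counts (median 10582592). Reads of all strains were mapped to the reference of C57BL/6J, and mapping differences between strains were not tested. Groups and replicate numbers follow the labels.

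The counts were tested in R 4.3.3 with edgeR 4.0.16 (TMM, quasi-likelihood, 1 fit per time point and 1 for the contralateral joints), in 45 comparisons. Alternatives were RLE size factors, 1 RUVg factor from 25 housekeeping genes, DESeq2 1.42.0, filterByExpr, a replicate block and leaving out each library. The study's own analysis used such factors, but their number is not given in the sources used here. The model was tested on simulated data. Libraries of a group are separate samples by their labels, and p-values measure the spread between them. The ratio of counts was compared with exact permutation tests after adding 0.5 to both counts. No 2 of 190 pairs of libraries within groups were identical.

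The members and lists were chosen with earlier results of these data known. All 10 members are named. From a list at most the 4 genes with the highest mean level could be named. Of the homing list only *S1pr1*, which was called, is named, and the lists of other cells are given without gene names. *Trac*, *Trbc1*, *Trbc2* and *Trdc* were added after the table was opened. The list of T cell transcription factors is not reported here. At 2-weeks the labels give both joints of each pair 1 shared code, taken as the animal, and same-numbered joints had correlated deviations in C57BL/6 (r = 0.183 to 0.271) and STR/ort (r = 0.213 to 0.449) but not in MRL/MpJ (r = -0.279 to 0.0824). At 1-week all 4 STR/ort pairs deviated together (r = 0.162 to 0.370). So did the pairs of MRL/MpJ at 1-week (r = 0.0845 to 0.177) and of C57BL/6 at 1-day (r = 0.0586 to 0.144). Before 2-weeks samples share only a number. At 1-week the uninjured groups of MRL/MpJ and STR/ort have 4 libraries against 5 injured ones, so the numbers may not match.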

Additional observations from a re-analysis of the deposited data

Results flagged for a closer look

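In 11 of 210 groups of 4 or 5 libraries, counted over the 10 genes and 21 groups, the highest or lowest library lay further from the rest than Dixon's 95% limit allows, and chance alone gives about 1 in 20. 4 of the 11 were in C57BL/6 or STR/ort at 0-day and for *Cd3d*, *Cd247* or *Jak3*. *Cd3d* was at 10.3 CPM in 0-day C57BL/6 replicate 1, against 5.30 to 6.03 CPM in the others. *Cd247* was at 3.29 CPM in 0-day C57BL/6 replicate 3, against 1.37 to 1.63, and at 0.614 CPM in 0-day STR/ort replicate 4, from 5 counts, against 1.66 to 1.78. *Jak3* was at 18.5 CPM in 0-day STR/ort replicate 3, and 15.0 CPM or less in the others. *Il7r* was at 12.1 CPM in 0-day MRL/MpJ replicate 3, against 16.2 to 16.9.

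*Cd3e* was at 1.95 CPM in 1-day C57BL/6 uninjured replicate 5, against 1.30 to 1.38, and at 4.33 CPM in 1-week C57BL/6 uninjured replicate 5, against 2.49 to 2.83. *Cd3g* was at 3.26 CPM in 1-week STR/ort uninjured replicate 4, against 1.32 to 1.63. *Cd247* was at 0.884 CPM in 1-week C57BL/6 injured replicate 3, from 9 counts, against 1.82 to 2.10. *Cd8a* was at 2.43 CPM in 2-weeks STR/ort uninjured replicate 5, against 1.41 to 1.69, and *Zap70* at 3.36 CPM in 2-weeks C57BL/6 uninjured replicate 1, against 1.63 to 2.11.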

How the results depend on the processing

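Of 106 calls of the 10 genes, 71 held in every alternative and with each library left out, and 0 changed sign. The number called moved by more than 1.5 times with the RUVg factor for C57BL/6 against STR/ort at 0-day (2), for MRL/MpJ against C57BL/6 (6) and against STR/ort (5) in uninjured joints at 1-day, for C57BL/6 against STR/ort in injured joints at 1-day (1), for MRL/MpJ against STR/ort in uninjured joints at 2-weeks (5), for injury in C57BL/6 at 1-week (1, *Cd3e*) and for the contralateral joints of STR/ort at 1-day (0) and C57BL/6 at 1-week (2). The last was 2 also with RLE size factors, DESeq2 and filterByExpr. For injury in STR/ort at 1-week DESeq2 called 0. The cause of these changes was not tested.

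With libraries left out in turn the number called ranged from 3 to 5 for C57BL/6 against STR/ort at 0-day, from 3 to 7 for the same strains in uninjured joints at 2-weeks and from 3 to 6 for MRL/MpJ against STR/ort in injured joints at 2-weeks. It ranged from 0 to 1 for injury in STR/ort at 1-week and in C57BL/6 at 2-weeks, from 1 to 2 for the contralateral joints of STR/ort at 1-day, and from 0 to 1 for those of C57BL/6 and of STR/ort at 1-week. Each fit had fewer samples. The replicate block, which pairs the joints, called 1 gene for injury in C57BL/6 at 2-weeks and, for STR/ort at 1-week, 1 other gene than the fit without it, and it changed no other call. The log2 ratio of *Cd3d* to *Cd3e* alone was 0.0444 for injury in STR/ort at 1-week, against -0.56 over all partners. The lowest library of each gene held 1 count of *Cd3e*, *Cd3g* and *Zap70*, 5 of *Cd247* and *Cd3d* and 6 of *Cd8a*. Small changes of these genes may have been missed at this depth, which was not tested.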

Other observations

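The mean standardized profile of the 10 genes was set against 14407 other genes with a mean level of at least 1 CPM. Over the 70 libraries of the first batch the genes most like it were *Slc6a20a* (Pearson's r = 0.903), *Cmah* (0.893), *Ubp1* (0.892) and *Itgad* (0.888). Over the 30 libraries of 2-weeks, which did not enter the ranking, r was 0.771, 0.779, 0.776 and 0.800 for these 4. The points share strains and libraries, so the values describe these data and carry no test.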
